A study of Mus musculus with 16 samples.

Results

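The genes described here are 33 named mouse genes that encode enzymes and carriers of glycolysis or are other targets of the hypoxia-inducible factors (HIF), measured in whole liver by RNA sequencing. They were taken by name from a deposited count table of 55487 genes, in which all 33 were found. Of the 33, 20 belong to glucose uptake, glycolysis and the fate of pyruvate and 13 are other HIF targets. The livers came from wild type C57BL/6J mice aged 12 weeks and fell into 4 groups of 4 libraries each: sustained hypoxia, intermittent hypoxia, overlap hypoxia, in which both patterns were combined per the series title, and room air. Apart from the air breathed, the labels give all groups the same strain, age, genotype and tissue. The sources used here do not give oxygen levels, the length of exposure, the time of day or feeding.

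HIF is a transcription factor whose alpha subunit is destroyed when oxygen is plentiful and accumulates when oxygen is scarce. It binds a short DNA element with the core ACGTG or GCGTG and is best known for raising the enzymes that turn glucose into lactate and for pyruvate dehydrogenase kinase, which keeps pyruvate out of mitochondria. Hepatocytes differ from most cells in that they can also run most of these steps backwards to make glucose, and they use their own isoforms (glucokinase, aldolase B, liver pyruvate kinase) at several steps. Sleep apnoea gives intermittent hypoxia and lung disease with low oxygen throughout gives sustained hypoxia.

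The members that passed the test were split in direction. In intermittent hypoxia Pgk1, Ldha, Tpi1 and Pgam1, enzymes of the second stage of glycolysis and of lactate formation, stood at lower levels than in room air, while Gapdh, which acts between Tpi1 and Pgk1 in the same pathway, stood higher (log2 fold change 0.94). In overlap hypoxia, set against the same room air libraries, Pgk1 and Ldha were lower and Gapdh and Gpi1 higher. Of all genes edgeR called 37.1% in intermittent and 6.29% in overlap hypoxia over room air. With the ribosomal RNA share of each library added to the model, edgeR called no member and 77 genes in all in intermittent hypoxia over room air. In overlap hypoxia the 4 members called became 0 without room air replicate 3 or 4. Over all genes, fits that left out 1 library called 174 to 1186 there, against 916 with all 16 libraries. In sustained hypoxia no member passed the test (edgeR called 0.0481% of all genes there, 0.0206% higher and 0.0275% lower). For 6 of the 32 members tested, each of them glycolytic, all 4 libraries there lay above all 4 room air libraries. No member lay wholly below room air, and 8.92% of all genes had groups without overlap in either direction. These results stand on total liver RNA, in which fewer cells of a type and less RNA per cell cannot be told apart.

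Library totals ranged from 10940275 to 64789635 counts, with the lowest in overlap hypoxia replicate 3. Levels are given in CPM, a gene's share of its library's counts scaled to a common library size with TMM factors, and values per library are listed in the order of replicates 1 to 4. The extraction protocol of the labels names retina where the tissue label says liver, so both were checked. Alb, the serum albumin of hepatocytes, averaged 48774 CPM or more in every group. Of the photoreceptor genes, Rcvrn was at 0 in all libraries and Gnat1 averaged 5.21 to 7.49 CPM. The groups differed in RNA composition. Ribosomal RNA took 18.5% to 34.8% of the counts in intermittent hypoxia, 2.53% to 16.8% in overlap hypoxia and 1.55% to 2.77% in sustained hypoxia, against 1.57% to 10.2% in room air. Mitochondrial transcripts took 6.23% to 11.7% in intermittent hypoxia, against 1.18% to 2.75% in room air, and transcripts of the major urinary proteins 2.83% to 10.4% in intermittent hypoxia, against 14.7% to 25.4% in room air. In overlap hypoxia endothelial markers summed to 38.7 to 70.8 CPM, against 79.3 to 98.2 CPM in room air, and lymphocyte markers to 1.31 to 2.27 CPM, against 2.46 to 3.79 CPM in room air; edgeR called 2 of the 8 endothelial markers as lower and none of the 5 lymphocyte markers tested, with none at 0 in all libraries. Each of these differences from room air in which the groups did not overlap gave p = 0.0286 in a two-sided exact permutation test, which cannot go lower with 4 against 4 libraries, and 0.150 after adjustment over 84 such tests. Kupffer cell and macrophage markers summed to 43.5 to 95.5 CPM in intermittent and 50.4 to 60.2 CPM in overlap hypoxia, against 118 to 220.2 CPM in room air, and edgeR called 9 of 10 as lower in each, with none of the 10 at 0 in all libraries. Their part in the results below was not tested.

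Of the 33 members, 32 had enough counts to be tested. The exception was Stc2, a secreted glycoprotein gene, which did not exceed 0.498 CPM in any library. In intermittent hypoxia against room air 3 members rose and 7 fell by edgeR's quasi-likelihood test (adjusted p under 0.05 over all 14553 genes tested). That is 10 of 32, where 37.1% of all genes tested were called (18.9% higher and 18.3% lower), so the members were called about as often as any gene. With upper-quartile scaling, which moved the median of all genes to 0.12, 5 members were higher and 4 lower. The median log2 fold change was −0.05 over the 32 members and 0.03 over all genes, and 9 members had groups without overlap (35.4% of all genes). With the ribosomal RNA share of each library added to the model edgeR called no member and 77 genes in all in this comparison. In that model 7 members had an unadjusted p under 0.05. Without that term 12 members did, as did 6725 of all 14553 genes. In overlap hypoxia against room air 2 members rose and 2 fell, 4 of 32, against 6.29% of all genes (3.41% higher and 2.89% lower). The median was 0.01 over the members and 0.03 over all genes, and 5 members had groups without overlap (13.7% of all genes). In sustained hypoxia against room air edgeR called none of the 32. An unadjusted p under 0.05 was reached there by 7 members and by 1672 of all 14553 genes. DESeq2 called 3 and limma-voom 5, all higher, where they called 175 and 248 of all 14553 genes. The median was 0.09 over the members and −0.01 over all genes. The plot of fold changes shows the 3 comparisons side by side. They share the same 4 room air libraries, so likeness between them is partly built in.

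**Figure D1:**
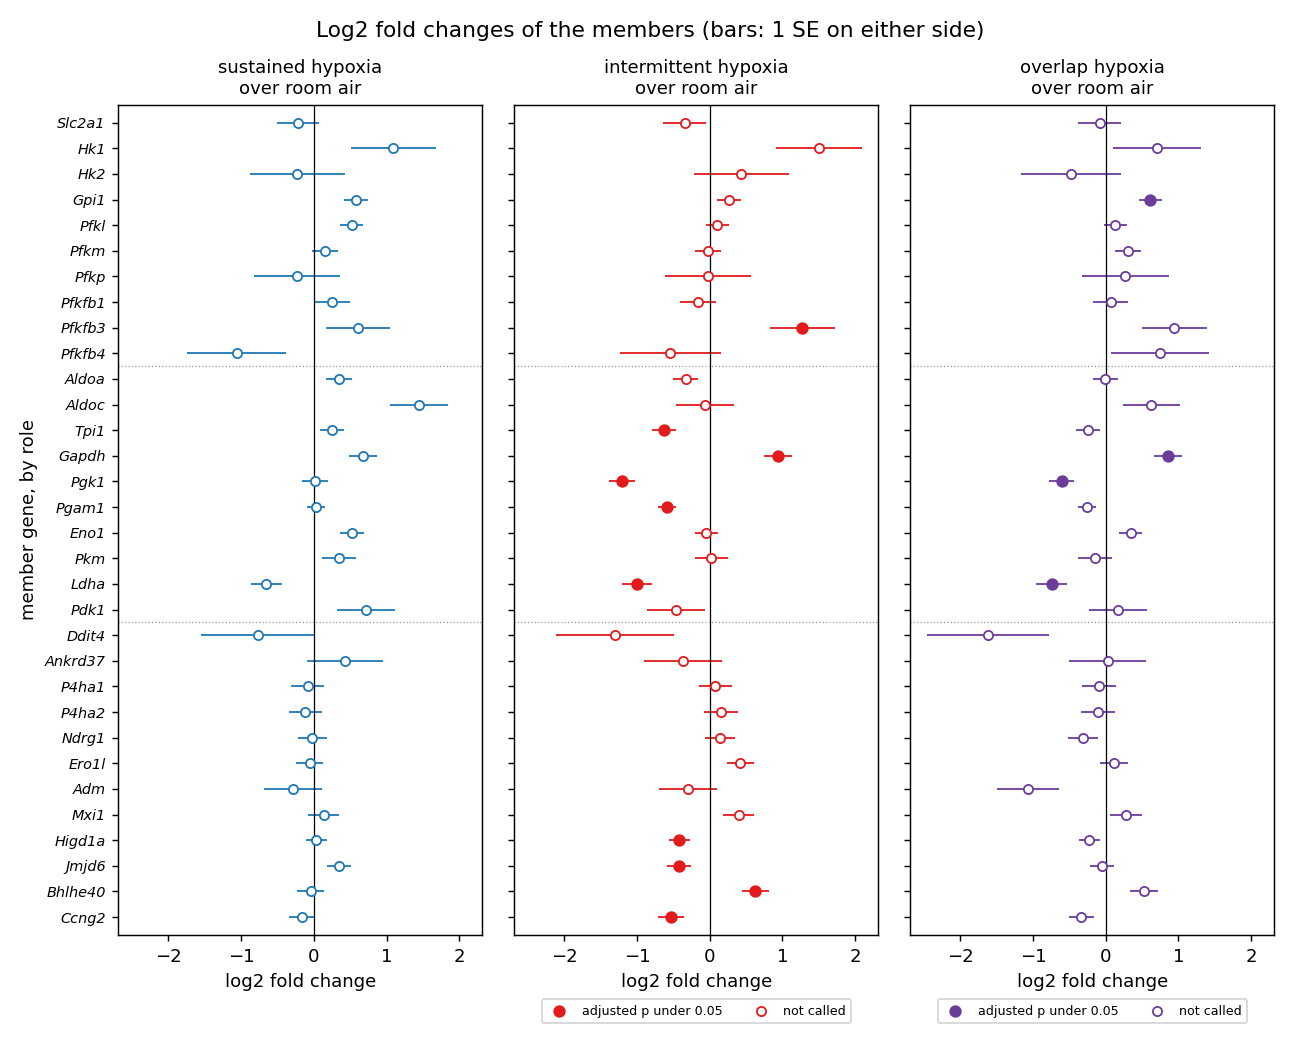
Log2 fold change of each of the 32 tested members (horizontal axis) in sustained, intermittent and overlap hypoxia over room air, from edgeR; points are estimates, bars 1 standard error to either side, filled points have an adjusted p under 0.05, and dotted lines divide uptake and upper glycolysis, lower glycolysis with lactate and pyruvate, and other HIF targets. No point is filled in sustained hypoxia, 10 are in intermittent hypoxia and 4 in overlap hypoxia.

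Levels per length set the members far apart. The length was that of all annotated exons of a gene merged over its transcripts. It was 4133 bases for Gapdh and 5379 for Eno1, against 1982 for Pgam1 and 2244 for Pgk1. That length can exceed the length of any 1 transcript, so the order of the genes depends partly on it. Per kilobase of exon, Ldha had the highest mean in room air (154 ± 31.1 CPM per kilobase, mean ± SD, n = 4), followed by Pgk1 (133 ± 19.9), Tpi1 (100.4 ± 12.6), Gapdh (88.7 ± 21.1) and Pgam1 (65.3 ± 4.19). Each of these neighbours overlapped with the next in mean ± SD, so their order is not firm. Eno1, Aldoa, Higd1a and Gpi1 followed at 41.4 ± 1.63, 32.97 ± 4.01, 28.6 ± 0.964 and 11.4 ± 1.27 CPM per kilobase, of which Aldoa and Higd1a overlapped in mean ± SD. At the other end stood Hk1 and Hk2, the hexokinases of most tissues other than liver, at 0.0385 and 0.0418, with Pfkp, Pfkfb4 and Stc2 also below 0.1. In all 3 exposures Gapdh came first. In sustained hypoxia it averaged 142 ± 18.9 CPM per kilobase, which overlapped with Pgk1 (135 ± 20.3) in mean ± SD. In intermittent hypoxia it averaged 170.1 ± 32.97, with Ldha at 76.6, Tpi1 at 65.2 and Pgk1 at 57.5. In overlap hypoxia it averaged 160.4 ± 39.6, ahead of Ldha at 91.7, Pgk1 at 87.2 and Tpi1 at 84.9.

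**Figure D2:**
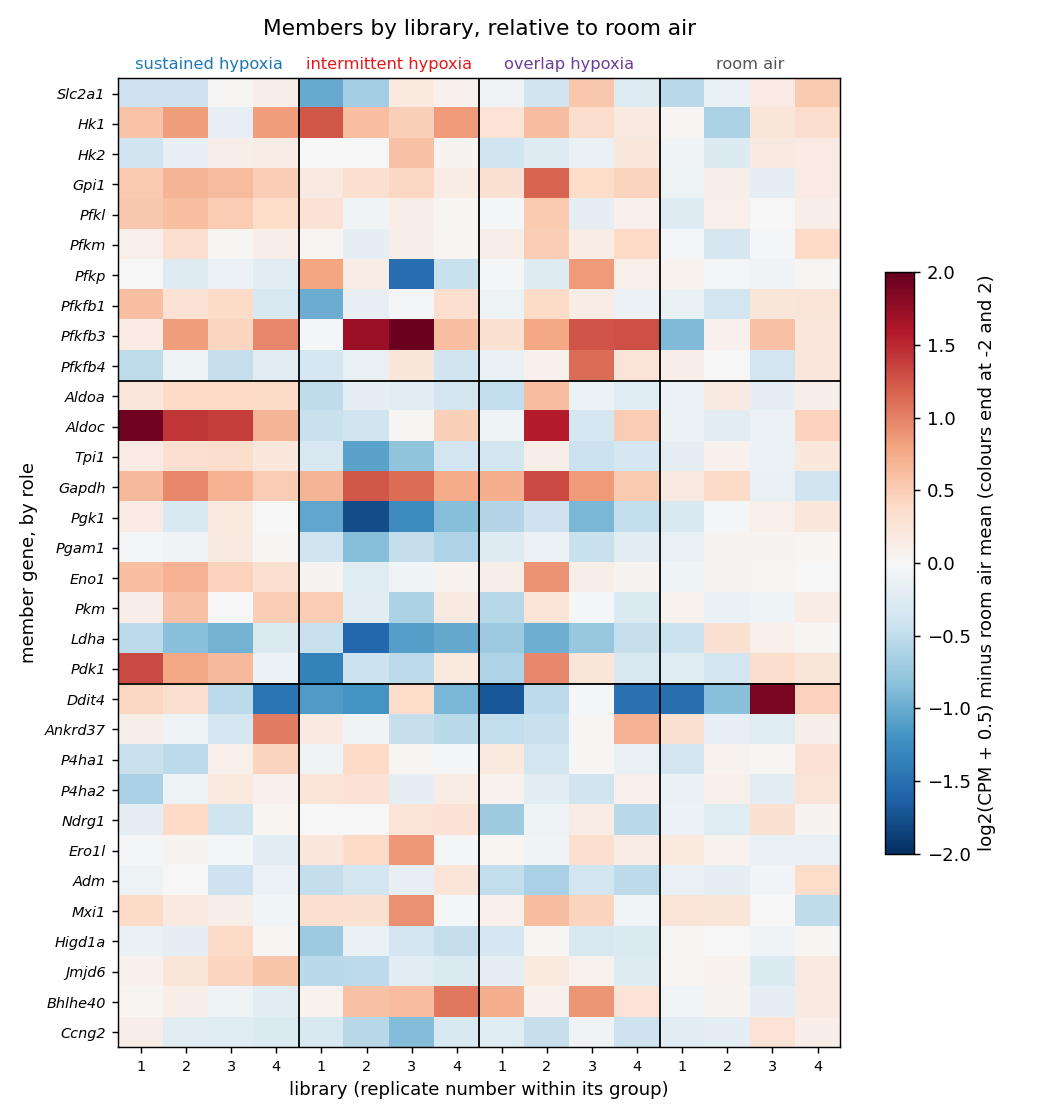
Each of the 32 tested members (rows, by role) in each of the 16 libraries (columns), as log2(CPM + 0.5) minus the mean of the room air libraries; red is higher and blue lower than room air, and colours end at −2 and 2. Gapdh is red in all 12 hypoxia libraries, Pgk1 is blue in every intermittent and overlap hypoxia library, and overlap hypoxia replicate 2 is the reddest column of its group in glycolysis.

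The uptake and upper glycolysis members were mostly not called. Slc2a1, the glucose carrier GLUT1, had log2 fold changes of −0.22, −0.34 and −0.08 in sustained, intermittent and overlap hypoxia over room air, with means of 6.91 ± 1.46, 6.33 ± 2.64 and 7.71 ± 2.58 CPM against 8.01 ± 2.62 CPM in room air (SD, n = 4). Hk1 and Hk2 stayed at or below 1.40 CPM in every library. Hk1 averaged 0.919 ± 0.351 CPM in intermittent hypoxia and 0.329 ± 0.225 CPM in room air, and the libraries did not overlap, but edgeR did not call it (log2 1.498, adjusted p = 0.0530) while DESeq2 and limma-voom did. The phosphofructokinase genes Pfkl, Pfkm and Pfkp, whose products commit glucose to glycolysis, were called by edgeR in no comparison with room air (log2 between −0.23 and 0.52); limma-voom called Pfkl in sustained hypoxia.

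Gpi1 (ENSMUSG00000036427, chr7:34201330-34230336, minus strand) encodes glucose-6-phosphate isomerase, the step after hexokinase. It stood at 90.6, 165, 94.3 and 99.8 CPM in overlap hypoxia, against 68.2, 79.3, 64.8 and 81.6 CPM in room air. All 4 overlap hypoxia libraries lay above the room air libraries, and replicate 2 lay far above the other overlap libraries. The log2 fold change was 0.61 (SE 0.16, edgeR adjusted p = 0.0297). Without overlap hypoxia replicate 2 it was 0.37 (edgeR adjusted p = 0.0577), and the call was also lost without room air replicates 1, 3 or 4 (log2 0.58, 0.56 and 0.67). It was also lost with the compared groups alone (edgeR adjusted p = 0.0721), with a gene-length offset (0.0770) and without overlap replicates 2 and 3 together (0.153). In sustained hypoxia Gpi1 had 105, 118, 114 and 103 CPM, again all above room air (log2 0.58, edgeR adjusted p = 0.171), and in intermittent hypoxia 82.7, 91.1, 97.7 and 81.4 CPM, which overlapped with room air.

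The bifunctional enzymes PFKFB make and break fructose 2,6-bisphosphate, the main activator of phosphofructokinase. Pfkfb3 (ENSMUSG00000026773, chr2:11471433-11554077, minus strand), the isoform with the strongest kinase activity, stood at 3.15, 11.6, 13.9 and 5.13 CPM in intermittent hypoxia, against 1.51, 3.43, 5.05 and 3.84 CPM in room air. The 4 libraries of intermittent hypoxia spread widely, with replicates 2 and 3 far above every room air library, replicate 4 just above and replicate 1 within the room air range. It rose by log2 1.28 (SE 0.45, edgeR adjusted p = 0.0365), a call lost without intermittent replicate 2 or 3 or room air replicate 1, 2 or 4 (log2 0.93 to 1.53 over all fits that left out 1 library) and at log2 0.03 with the ribosomal RNA share in the model. It was also lost with limma-voom, with no filter on low counts, with the compared groups alone, with a gene-length offset and without overlap replicates 2 and 3 together (adjusted p between 0.0587 and 0.107, the limma-voom value included and the others by edgeR). In overlap hypoxia it had 4.11, 5.84, 8.39 and 8.55 CPM and in sustained hypoxia 3.64, 6.16, 4.53 and 6.69 CPM, with log2 fold changes of 0.94 and 0.60 that were not called (edgeR adjusted p = 0.228 and 0.665). Pfkfb1, the isoform of liver, averaged 30.4 ± 7.64 CPM in sustained, 22.7 ± 8.01 CPM in intermittent and 26.7 ± 4.52 CPM in overlap hypoxia, against 25.5 ± 5.30 CPM in room air. Pfkfb4, an isoform known from testis, did not exceed 1.22 CPM.

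The lower part of the pathway held the largest called falls. Of its 10 members, from aldolase to lactate dehydrogenase and pyruvate dehydrogenase kinase, 1 rose and 4 fell in intermittent hypoxia over room air, where 37.1% of all genes were called, and their median was −0.40 (log2). In overlap hypoxia 1 rose and 2 fell, where 6.29% of all genes were called, and their median was −0.07. In sustained hypoxia 9 of the 10 had a positive log2 fold change, with a median of 0.35; the median of all genes there was −0.01. There edgeR called none of the 10, DESeq2 called 2 (Aldoc and Gapdh) and limma-voom 3 (these and Eno1). Summed over the 10, the level was 2133 to 2279 CPM in sustained, 1624 to 1738 CPM in intermittent and 1764 to 2469 CPM in overlap hypoxia, against 1729 to 2189 CPM in room air.

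Pgk1 (ENSMUSG00000062070, chrX:106187100-106203699, plus strand), phosphoglycerate kinase, makes the first ATP of glycolysis and Ldha (ENSMUSG00000063229, chr7:46841475-46855627, plus strand), lactate dehydrogenase A, turns pyruvate into lactate; both are textbook HIF targets. Their promoters are shown because they carry the ACGTG core of the HIF element, beside that of Gapdh (ENSMUSG00000057666, chr6:125161715-125166467, minus strand), glyceraldehyde-3-phosphate dehydrogenase, which moved the other way. The stretches are the bases just before the annotated start, 250 each, from the RefSeq promoter table (GRCm38.p6), with ACGTG or its complement on the other strand in capitals; where both fall on the same letters the run reads CACGTG.
Pgk1, chrX:106186850-106187099, plus strand: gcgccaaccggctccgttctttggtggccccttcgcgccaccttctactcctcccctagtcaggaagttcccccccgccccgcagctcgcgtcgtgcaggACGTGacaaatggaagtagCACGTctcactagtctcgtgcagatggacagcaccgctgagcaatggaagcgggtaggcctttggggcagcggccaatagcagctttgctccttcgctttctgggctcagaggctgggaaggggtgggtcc
Ldha, chr7:46845554-46845803, plus strand: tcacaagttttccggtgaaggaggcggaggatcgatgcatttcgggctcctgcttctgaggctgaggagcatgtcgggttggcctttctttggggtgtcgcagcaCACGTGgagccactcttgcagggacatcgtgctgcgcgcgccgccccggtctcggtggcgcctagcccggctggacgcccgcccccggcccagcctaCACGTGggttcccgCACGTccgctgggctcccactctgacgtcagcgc
Gapdh, chr6:125165774-125166023, minus strand: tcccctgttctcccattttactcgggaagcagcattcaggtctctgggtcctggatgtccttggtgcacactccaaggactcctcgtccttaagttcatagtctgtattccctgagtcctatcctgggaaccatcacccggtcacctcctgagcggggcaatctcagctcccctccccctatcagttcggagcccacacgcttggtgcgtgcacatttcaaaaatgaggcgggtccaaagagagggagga
The Ldha stretch belongs to 1 of 2 annotated starts, and the 250 bases before the other held no ACGTG. The capitals do not mark GCGTG, the other core, which the Gapdh stretch holds. Gapdh had no ACGTG in these letters, and its window of 300 bases, which also takes in 50 bases after the start, held 1. Over all members, 31 had a window in the table (none for Ndrg1 or Bhlhe40), 49 windows in all because 11 members have more than 1 start. ACGTG on either strand lay in 24 of the 49 windows (49.0%), against 19.6% of 32851 windows of all genes, and ACGTG or GCGTG in 77.6%, against 43.8%. The windows of 1 gene are not independent and HIF targets were partly found through such elements, so this describes the members and is no test. Of the 5 lower glycolytic genes called in intermittent hypoxia, Pgk1, Ldha, Pgam1 and Gapdh had ACGTG in a window and Tpi1 had none.

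In intermittent hypoxia Pgk1 stood at 144, 86.3, 123 and 163 CPM, against 240.1, 291, 315.6 and 345 CPM in room air. Every intermittent hypoxia library lay below every room air library. The log2 fold change was −1.21 (SE 0.18, edgeR adjusted p = 5.44e-05), and it lay within −1.35 to −1.05 over the 16 fits that each left out 1 library. Overlap hypoxia lay between, at 196, 221, 156 and 209 CPM, below all room air libraries with log2 −0.61 (SE 0.18, edgeR adjusted p = 0.0464) and above intermittent hypoxia with log2 0.60 (edgeR adjusted p = 0.0493), where overlap replicate 3 lay within the range of the intermittent libraries. Pgk1 was the 1 member of 32 called in overlap against intermittent hypoxia, where 6.15% of all genes were (3.2% higher and 2.95% lower). That call held without room air replicate 1, sustained replicate 2, intermittent replicate 4 or overlap replicate 3 and was lost without any other single library (log2 0.44 to 0.74, highest edgeR adjusted p = 0.171). The overlap call against room air was lost without overlap replicate 1, 3 or 4, sustained replicate 1, 3 or 4, intermittent replicate 3 or room air replicate 2, 3 or 4 (log2 −0.70 to −0.51), and with upper-quartile scaling, a gene-length offset or without overlap replicates 2 and 3 together (edgeR adjusted p between 0.0581 and 0.197). Sustained hypoxia, at 332, 239.7, 339.5 and 298 CPM, had much the range of room air (log2 0.02).

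Ldha stood at 369, 168, 232 and 245 CPM in intermittent and 301, 254, 297 and 362 CPM in overlap hypoxia, against 372, 619.6, 536 and 506 CPM in room air. Both exposures lay wholly below room air, though intermittent replicate 1 and room air replicate 1 almost met. It fell by 1.00 (log2; SE 0.21, edgeR adjusted p = 0.00104) in intermittent and by 0.74 (SE 0.21, edgeR adjusted p = 0.0407) in overlap hypoxia. The call in overlap hypoxia was lost without overlap replicate 1, 2 or 3, room air replicate 2, 3 or 4, sustained replicate 1 or intermittent replicate 4 (log2 −0.87 to −0.64), with upper-quartile scaling (edgeR adjusted p = 0.0545) and without overlap replicates 2 and 3 together (0.252). Ldha was also the lower glycolytic member with a negative log2 fold change in sustained hypoxia, with 348, 279.5, 259 and 409.7 CPM (log2 −0.65, edgeR adjusted p = 0.232); sustained replicate 4 overlapped with room air.

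Pgam1 (ENSMUSG00000011752, chr19:41911923-41918660, plus strand), phosphoglycerate mutase, had 98.4, 71.1, 92.2 and 84.2 CPM in intermittent hypoxia, against 117, 134, 134 and 132 CPM in room air. The groups did not overlap, and Pgam1 fell by 0.58 (log2; SE 0.12, edgeR adjusted p = 0.00109). In overlap hypoxia it had 108, 119, 94.5 and 110.3 CPM, with only replicate 2 inside the room air range (log2 −0.26, edgeR adjusted p = 0.208). Tpi1 (ENSMUSG00000023456, chr6:124810586-124814296, minus strand), triosephosphate isomerase, had 221, 129.96, 157 and 211 CPM in intermittent hypoxia, against 242, 292, 254 and 317.6 CPM in room air. All intermittent libraries were lower than all room air libraries, and Tpi1 fell by 0.62 (log2; SE 0.16, edgeR adjusted p = 0.00570). With the ribosomal RNA share in the model its log2 fold change was 0.03.

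Gapdh was the member that rose in both intermittent and overlap hypoxia. It stood at 577, 853, 783 and 598 CPM in intermittent and 597, 895, 645 and 516 CPM in overlap hypoxia, against 408, 466, 322 and 271 CPM in room air. No library of either exposure reached down to the room air range. The log2 fold changes were 0.94 (SE 0.19, edgeR adjusted p = 0.000815) and 0.85 (SE 0.19, edgeR adjusted p = 0.0151). Sustained hypoxia, with 564, 696, 581 and 511 CPM, also lay wholly above room air, at log2 0.68 (SE 0.19, edgeR adjusted p = 0.175). In overlap hypoxia the call was lost without room air replicate 3 or 4 (edgeR adjusted p = 0.0618 and 0.0547) or without overlap replicates 2 and 3 together (0.128). Gapdh is often used as a reference gene in expression work.

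**Figure D3:**
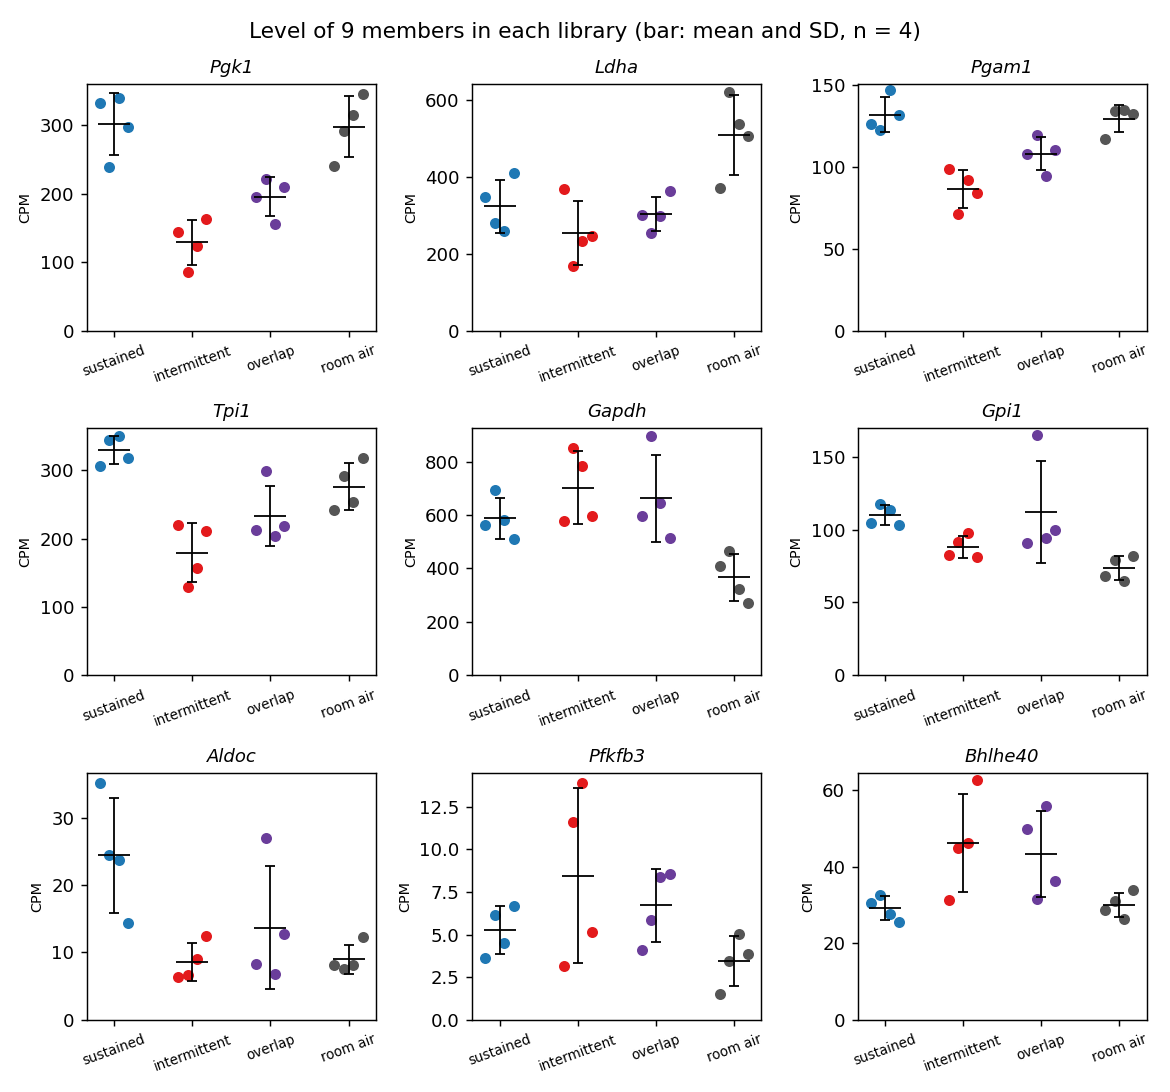
Level in CPM (vertical axis, from 0) of Pgk1, Ldha, Pgam1, Tpi1, Gapdh, Gpi1, Aldoc, Pfkfb3 and Bhlhe40 in each library of sustained, intermittent and overlap hypoxia and room air; points are libraries, lines the mean with SD bars (n = 4). Pgk1 is lowest in intermittent hypoxia with overlap hypoxia between it and room air, while every hypoxia library of Gapdh lies above the room air libraries.

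In the plot against the ribosomal RNA share, Pgk1 and Tpi1 were low in the intermittent hypoxia libraries, which have the highest shares. Intermittent replicate 2 had the lowest Pgk1 and Ldha of all libraries (86.3 and 168 CPM) at a share of 25.6%. Gapdh was highest in overlap replicate 2, at a share of 2.53%. All 4 sustained hypoxia libraries, at shares of 1.55% to 2.77%, lay above room air in Gapdh. Intermittent replicates 1 to 4 had shares of 22.1%, 25.6%, 34.8% and 18.5%, with Gapdh at 577, 853, 783 and 598 CPM. Room air replicates 1 to 4 had shares of 10.2%, 3.43%, 5.69% and 1.57%, with Gapdh at 408, 466, 322 and 271 CPM. With that share in the model, the intermittent hypoxia log2 fold change over room air was −0.80 for Pgk1, −0.89 for Ldha, −0.52 for Pgam1 and 1.00 for Gapdh, none called by edgeR (adjusted p between 0.196 and 0.290). The lowest ribosomal share in intermittent hypoxia lay above the highest in room air, so exposure and ribosomal share cannot be told apart in that comparison. Overlap hypoxia, whose share overlapped with that of room air, kept the calls of Gapdh and Gpi1 and lost those of Pgk1 and Ldha in that model (log2 −0.51 and −0.71). Longer genes had higher log2 fold changes in intermittent and overlap hypoxia (Spearman correlation across 14540 genes 0.257 and 0.208), and genes are not independent replicates.

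**Figure D4:**
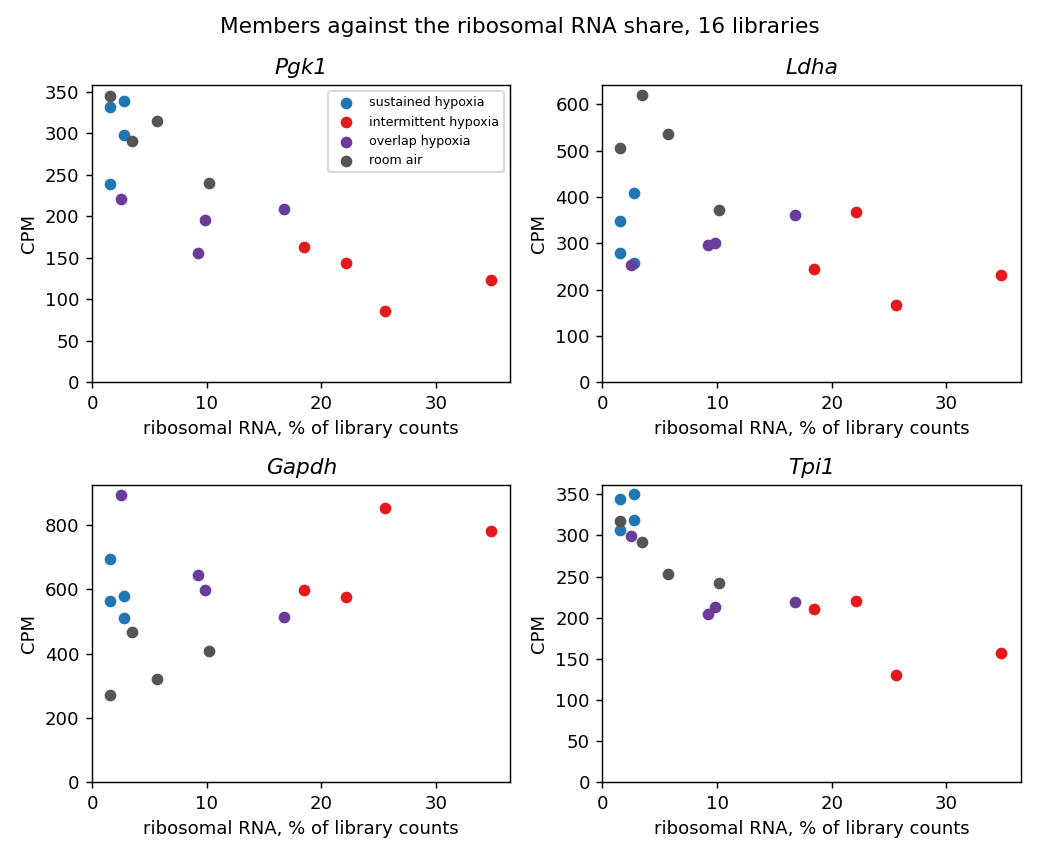
Level in CPM (vertical axes, from 0) of Pgk1, Ldha, Gapdh and Tpi1 against the percent of each library's counts in ribosomal RNA genes (horizontal axes) for 16 libraries coloured by group. The 4 intermittent hypoxia libraries stand at 18.5% to 34.8%, above all room air libraries (1.57% to 10.2%), with Pgk1 and Tpi1 low there; Gapdh is highest in an overlap hypoxia library at a share of 2.53%.

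Several glycolytic genes have processed pseudogenes, copies of their messenger RNA in the genome, among which reads must be shared out. Of the 50-base words of Pgk1, 53.9% also occur in transcripts of other genes, and the share was 36.2% for Pgam1, 25.99% for Eno1, 25.8% for Pkm, 25.1% for Gapdh and 24.4% for Higd1a, against 9.26% for Ldha and 4.18% for Tpi1. Words on either strand were counted, and not all of these other genes are pseudogenes. Higd1a, with 798 shared words, had 634 in common with the antisense gene Gm47112 on its own chromosome. Pkm, with 1323 shared words, had 623 in common with Gm49759, also on its own chromosome. For Gapdh words were shared with 213 pseudogenes, of which 88 had at least 10% of their own words in common with Gapdh and were joined. A stretch of the Gapdh coding sequence is shown beside the copies that share it; capitals mark the bases at which Gm3839 differs (GENCODE M21 transcripts, GRCm38).
Gapdh, chr6:125163377-125163436, minus strand: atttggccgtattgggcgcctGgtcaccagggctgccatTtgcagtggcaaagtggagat
Gm7336, a processed pseudogene within chr7:51746647-51747878: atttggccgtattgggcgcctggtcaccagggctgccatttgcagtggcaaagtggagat
Gm3839, annotated as protein coding, within chr14:11280735-11356726: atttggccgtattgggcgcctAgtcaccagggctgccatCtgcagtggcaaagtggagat
All 60 bases of Gm7336 are those of Gapdh, and 2 of Gm3839 differ. The joined pseudogenes held 1.47% of the joined Gapdh counts over all libraries (0.661% to 2.48% by library), and for the other members at most 0.391%, reached by Higd1a. In a single library the share reached 3.29% for Higd1a, with means of 1.15% in intermittent hypoxia and 0.129% in room air, and 7.19% for Pkm. Adding the pseudogenes' counts to the members, or also those of the coding copies Gm3839 and Eno1b, left the count of called members at 0, 10 and 4 in sustained, intermittent and overlap hypoxia over room air. Gm3839 held 9554 counts over all libraries, against 6169 in the 88 joined Gapdh pseudogenes. Pgk1-rs7 and Gm5537 share all their words with Pgk1, and Pgam1-ps2 with Pgam1. These copies held 0 counts, so adding them cannot test how reads were shared out. Where reads are shared out by estimate, the counts of Pgk1, Pgam1 and Gapdh remain uncertain to the extent that the estimate is.

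The 6 members whose sustained hypoxia libraries all lay above room air were Gpi1, Pfkl, Aldoa, Aldoc, Gapdh and Eno1. None was called by edgeR with all 16 libraries. Aldoc, the aldolase isoform of brain, had 35.2, 24.4, 23.7 and 14.3 CPM in sustained hypoxia, against 8.07, 7.49, 8.07 and 12.3 CPM in room air (log2 1.45, SE 0.40, edgeR adjusted p = 0.207). Sustained replicate 1 was the highest and replicate 4 the lowest of its group, still above room air replicate 4. Eno1, enolase, had 277 to 359 CPM in sustained hypoxia, against 211 to 231 CPM in room air (log2 0.53, edgeR adjusted p = 0.221). Aldoa, the aldolase of muscle, averaged 122 ± 6.82 CPM in sustained hypoxia and 96.0 ± 11.7 CPM in room air (log2 0.35), and Pfkl, the liver phosphofructokinase, 12.1 ± 0.845 CPM in sustained hypoxia and 8.41 ± 1.05 CPM in room air (log2 0.52).

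Without overlap hypoxia replicate 2, which is in neither of the groups compared, edgeR called 57 of 14976 genes tested in sustained hypoxia over room air, Gpi1, Aldoc and Eno1 among them as higher (adjusted p = 0.0329, 0.0471 and 0.0491). DESeq2 called Gpi1, Aldoc and Gapdh, and limma-voom these and also Pfkl and Eno1. Erythroid markers, globin and other red cell genes, were summed, giving 1761 to 2076 CPM in sustained replicates 1 to 3 and 418 CPM in replicate 4, against 252 to 712 CPM in room air, with none of the 7 at 0 in all libraries; 5 of the 7 were tested and edgeR called none. Aldoc and Pdk1 were also lowest in sustained replicate 4, and overlap replicate 2, the overlap library with the highest Aldoc and Pdk1, had an erythroid sum of 1334 CPM, against 219 to 483 CPM in the other overlap libraries. The part of red cells in these levels was not tested. Pdk1, the pyruvate dehydrogenase kinase known as a HIF target, had 107, 73.3, 67.6 and 39.3 CPM in sustained, 16.4, 31.7, 29.6 and 49.3 CPM in intermittent and 27.7, 83.9, 50.8 and 34.3 CPM in overlap hypoxia, against 36.2, 33.2, 54.9 and 50.9 CPM in room air. Its groups overlapped in each comparison with room air, and none was called. Pkm, the pyruvate kinase of most tissues other than liver, stayed between 4.02 and 10.1 CPM and was called in none of the 6 comparisons.

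Among the 13 other HIF targets, 12 were tested, and 1 rose and 3 fell in intermittent hypoxia over room air (median log2 fold change −0.11), against 37.1% of all genes called. None was called in sustained or overlap hypoxia by edgeR, DESeq2 or limma-voom. In edgeR 1 had an unadjusted p under 0.05 in sustained hypoxia and 2 in overlap hypoxia. Of all 14553 genes 1672 and 3320 did. Bhlhe40 (ENSMUSG00000030103, chr6:108660629-108666925, plus strand), a transcriptional repressor of the circadian clock also known as DEC1, had 31.4, 44.9, 46.2 and 62.8 CPM in intermittent hypoxia, against 28.8, 30.99, 26.4 and 33.8 CPM in room air. Replicate 1 lay within the room air range and the others above it. It rose by log2 0.63 (SE 0.19, edgeR adjusted p = 0.0126), or 0.43 without intermittent replicate 4 (edgeR adjusted p = 0.0660). In overlap hypoxia it had 49.8, 31.7, 55.8 and 36.2 CPM, with replicate 2 within the room air range (log2 0.53, edgeR adjusted p = 0.0962), and in sustained hypoxia 30.7, 32.7, 27.7 and 25.5 CPM. Without overlap replicate 2 the overlap value was 0.66 and edgeR called it (adjusted p = 0.0365).

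The 3 that fell in intermittent hypoxia did so by less than log2 0.6 each. Ccng2 (ENSMUSG00000029385, chr5:93267257-93276231, plus strand), an unusual cyclin linked to cell cycle arrest, had 6.76, 5.63, 4.41 and 6.80 CPM in intermittent hypoxia, against 7.23, 7.38, 10.4 and 9.31 CPM in room air, without overlap (log2 −0.53, SE 0.18, edgeR adjusted p = 0.0223). Higd1a (ENSMUSG00000038412, chr9:121848563-121858362, minus strand), a small mitochondrial inner membrane protein, had 52.0, 79.1, 66.6 and 62.6 CPM in intermittent hypoxia, against 88.5, 87.7, 82.5 and 88.7 CPM in room air, also without overlap (log2 −0.42, SE 0.14, edgeR adjusted p = 0.0290). Jmjd6 (ENSMUSG00000056962, chr11:116837432-116843449, minus strand), an oxygen-dependent hydroxylase, had 5.63, 5.69, 7.21 and 6.82 CPM in intermittent hypoxia, against 8.67, 8.85, 6.86 and 9.60 CPM in room air, with intermittent replicate 3 inside the room air range (log2 −0.42, SE 0.16, edgeR adjusted p = 0.0459). Single libraries decided these 3: Ccng2 lost its call without intermittent replicate 2 or 3 or room air replicate 3 or 4, Higd1a without intermittent replicate 1 or room air replicate 4, and Jmjd6 without intermittent replicate 1 or 2, sustained replicate 2 or room air replicate 1, 2 or 4. Over all fits without 1 library the log2 values ranged over −0.62 to −0.42, −0.52 to −0.34 and −0.52 to −0.37. All 3 calls were lost with upper-quartile scaling and with the ribosomal RNA share in the model, Ccng2 and Jmjd6 also with limma-voom and with the compared groups alone, Higd1a with a gene-length offset and Jmjd6 with no filter or a filter at a mean of 1 CPM.

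The remaining other HIF targets were not called against room air. Ddit4, an inhibitor of mTOR signalling, had 1.31 to 6.08, 1.65 to 5.85 and 1.02 to 4.37 CPM in sustained, intermittent and overlap hypoxia, against 1.24 to 17.7 CPM in room air. Adm, the vasodilator peptide adrenomedullin, had 0.268 to 0.437 CPM in overlap hypoxia, against 0.565 to 1.06 CPM in room air, without overlap but at low counts (log2 −1.07, SE 0.42, edgeR adjusted p = 0.133). Ero1l, an oxidase of protein folding, stood at log2 0.42 and Mxi1, an antagonist of MYC, at 0.40 in intermittent hypoxia (edgeR adjusted p = 0.0853 and 0.155). The collagen prolyl hydroxylase genes P4ha1 and P4ha2, the stress-responsive gene Ndrg1 and the ankyrin repeat gene Ankrd37 had log2 fold changes between −0.37 and 0.43 over the 3 comparisons.

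Among the exposures, the most members were called between intermittent and sustained hypoxia. In intermittent against sustained hypoxia 2 members rose and 10 fell, 12 of 32, against 38.4% of all genes (19.5% higher and 18.9% lower), and 10 had groups without overlap (35.8% of all genes). Of the 10 lower glycolytic members 7 fell (median log2 fold change −0.64; all genes 0.03), and of the 10 upper ones 1, Pfkl (−0.42). The falls were −1.51 for Aldoc, −1.23 for Pgk1, −1.18 for Pdk1, −0.88 for Tpi1, −0.68 for Aldoa, −0.61 for Pgam1 and −0.57 for Eno1, with edgeR adjusted p between 6.22e-05 and 0.0330. Aldoc, with 6.32, 6.59, 8.996 and 12.4 CPM in intermittent and 35.2, 24.4, 23.7 and 14.3 CPM in sustained hypoxia, did not overlap. Jmjd6 and Higd1a also fell, by 0.77 and 0.45, and Bhlhe40 and Ero1l rose by 0.67 and 0.48 (edgeR adjusted p = 0.00844 and 0.0495). Of 29 alternative fits, the call held in 9 for Ero1l, 19 for Pfkl, 20 for Pdk1 and 25 for Higd1a. For each of the other members called in this comparison it held in 28. With the ribosomal RNA share in the model edgeR called no member and 1 gene in all, against 5584 genes without it. In that model 2 members had an unadjusted p under 0.05, and Pfkl, Eno1, Pdk1 and Ero1l changed sign. Without that term 13 members and 6829 of all 14553 genes had an unadjusted p under 0.05. The share was 18.5% to 34.8% in intermittent and 1.55% to 2.77% in sustained hypoxia. Exposure and ribosomal share therefore cannot be told apart in that comparison.

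In overlap against sustained hypoxia edgeR called none of the 32 members, against 0.165% of all genes (0.137% higher and 0.0275% lower). An unadjusted p under 0.05 was reached there by 8 members and by 2978 of all 14553 genes. DESeq2 called 2 members and limma-voom 5, where they called 896 and 1224 of all 14553 genes. Over the 10 lower glycolytic members the median was −0.42 (log2) and 9 values lay below 0; the median of all genes was 0.02, and 3 of the 32 members had groups without overlap (10.8% of all genes). The count of calls changed most without 1 library. Overlap replicate 2 had the highest value in its group for 17 of the 32 members, and a median over the glycolytic members of 0.44 (log2 over the room air mean), against −0.09 to 0.13 in the other overlap libraries; its ribosomal RNA share, 2.53%, was also the lowest of its group. Without it edgeR called 1547 of 14976 genes tested in overlap against sustained hypoxia, 7 members among them: Aldoc (−1.38), Pgk1 (−0.69), Tpi1 (−0.64), Aldoa (−0.63), Pfkl (−0.56) and Eno1 (−0.43) as lower and Bhlhe40 (0.70) as higher. In room air, replicate 4 had the highest value of its group for 17 of 32 members. The 4 calls of overlap hypoxia over room air became 0 without room air replicate 3, 0 without room air replicate 4, 2 without room air replicate 2, sustained replicate 1 or overlap replicate 1 or 3, and 0 without overlap replicates 2 and 3 together. Over all genes the 916 calls of that comparison became 174 to 1186 without single libraries.

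Other genes of the same pathways were taken from lists. Of 20 other glycolytic isoforms and glucose and lactate carriers 13 were tested. In intermittent hypoxia over room air 1 rose and 1 fell (37.1% of all genes were called). In sustained and overlap hypoxia edgeR called none, while DESeq2 called 1 in each and limma-voom none. There 5 and 2 of the 13 had an unadjusted p under 0.05 in edgeR, as did 1672 and 3320 of all 14553 genes. The list's median log2 fold changes were 0.08, −0.10 and −0.03 in sustained, intermittent and overlap hypoxia. Pfkfb2, another PFKFB isoform, averaged 8.18 ± 3.19 CPM in intermittent hypoxia and 2.85 ± 0.814 CPM in room air (log2 1.52, edgeR adjusted p = 0.000373), and Slc16a1, the lactate carrier MCT1, 17.3 ± 5.25 CPM in intermittent hypoxia and 28.1 ± 6.44 CPM in room air (log2 −0.70, edgeR adjusted p = 0.0101). Pklr, liver pyruvate kinase, averaged 89.9 ± 30.6 CPM in sustained and 90.4 ± 48.6 CPM in overlap hypoxia, against 44.1 ± 6.42 CPM in room air, with no overlap and no call (log2 1.03 and 1.04, edgeR adjusted p = 0.288 and 0.0960). Adpgk, an ADP-dependent glucokinase, stood at log2 −0.41 in sustained hypoxia (edgeR adjusted p = 0.321).

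Of 12 genes of the pyruvate dehydrogenase complex, its kinases and phosphatases and the mitochondrial pyruvate carrier, 1 rose and 4 fell in intermittent hypoxia over room air. In overlap hypoxia over room air 1 rose and 1 fell. Of all genes 37.1% and 6.29% were called in these comparisons. In sustained hypoxia edgeR called none, DESeq2 1 and limma-voom 1. An unadjusted p under 0.05 in edgeR was reached there by 4 of the 12 and by 1672 of all 14553 genes. For sustained, intermittent and overlap hypoxia the list's medians were 0.08, −0.14 and −0.18. Pdk2, a kinase that switches the complex off, averaged 44.3 ± 6.26 CPM in intermittent and 37.4 ± 8.81 CPM in overlap hypoxia, against 22.97 ± 3.24 CPM in room air (log2 0.95 and 0.70, edgeR adjusted p = 0.000349 and 0.0228). Dld, the dehydrogenase subunit shared with other complexes, averaged 42.2 ± 7.77 CPM in intermittent and 57.8 ± 5.86 CPM in overlap hypoxia, against 90.8 ± 12.6 CPM in room air (log2 −1.10 and −0.65, edgeR adjusted p = 2.03e-05 and 0.0136). Pdhx, a structural subunit, and Mpc2, a subunit of the pyruvate carrier, fell in intermittent hypoxia by 1.10 and 0.57 (log2; edgeR adjusted p = 1.86e-05 and 0.00453).

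Of 32 further HIF targets 27 were tested. In intermittent hypoxia over room air 6 rose and 8 fell (37.1% of all genes were called), and in overlap hypoxia 2 rose and 1 fell (6.29% of all genes). In sustained hypoxia edgeR called none, DESeq2 2 and limma-voom 2. An unadjusted p under 0.05 in edgeR was reached there by 7 of the 27 and by 1672 of all 14553 genes. For sustained, intermittent and overlap hypoxia the list's medians were −0.05, −0.22 and −0.04. Vegfa, the vascular growth factor, averaged 67.9 ± 8.81 CPM in intermittent and 41.3 ± 9.05 CPM in overlap hypoxia, against 22.4 ± 4.48 CPM in room air, without overlap (log2 1.60 and 0.88, edgeR adjusted p = 6.34e-06 and 0.00761). Zfp395, a zinc finger gene, averaged 9.47 ± 1.97 CPM in intermittent hypoxia and 2.41 ± 0.780 CPM in room air (log2 1.97, edgeR adjusted p = 3.30e-05). Insig2, which holds back sterol synthesis, averaged 47.6 ± 7.68 CPM in intermittent and 57.1 ± 17.2 CPM in overlap hypoxia, against 123 ± 31.2 CPM in room air (log2 −1.37 and −1.11, edgeR adjusted p = 0.000193 and 0.0111). Bnip3l, a receptor for the removal of mitochondria, fell by 0.91 in intermittent hypoxia (log2; edgeR adjusted p = 9.02e-05).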

How the data were processed

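The authors deposited 1 table of expected counts per gene (estimated counts, 49.3% of the values above 0 not whole) for 16 libraries from whole liver. Libraries were made with the Illumina TruSeq RNA kit from Trizol extracts, per the labels' protocols. Per the submitters' processing notes, Bowtie 1.3.0 and RSEM were used with the genome build GRCm38. The annotation release, the read length and whether counting used strand were not given in the sources used here. Where reads fit several copies of a gene, such estimates share them out, so members with pseudogenes carry added uncertainty.

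Counts were rounded to whole numbers, filtered with filterByExpr (14553 of 55487 genes kept), scaled by TMM and tested with edgeR 4.0.16 (R 4.3.3), a quasi-likelihood test with robust spread and 1 coefficient per group over all 16 libraries. P-values were adjusted by Benjamini-Hochberg over all genes tested, separately in each of 6 comparisons, and "called" means an adjusted p under 0.05. The same steps were run on simulated counts with known changes in a small set of genes in intermittent hypoxia. The simulated counts held no shift in ribosomal RNA share or with gene length, so they do not check the calls under such shifts. Positive fold changes mean higher in the group named first; SE is the standard error of log2. Single library measures were compared by exact two-sided permutation tests. Alternatives were DESeq2 1.42.0, limma-voom (limma 3.58.1), other scalings and filters, the compared groups alone, a replicate block, the ribosomal RNA share as a covariate, a gene-length offset, members joined with their pseudogenes and each library left out. Added after seeing the data were members joined with their coding copies as well and overlap hypoxia without replicates 2 and 3.

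The members and the other gene lists were chosen with earlier results of these data known. Values in every library are given for members called against room air, and of each other list up to 4 genes with the lowest p are named; the library values of Aldoc and Pdk1 were chosen after they had been seen. No library was a copy of another of its own group, since counts of libraries within a group differed far beyond sampling noise (chi-square per degree of freedom 64.4 to 491 over 24 pairs). Libraries of different groups were not compared in this way. The labels number the libraries but do not say that each came from a separate animal, so p-values speak only of the spread between libraries, which may be technical. Of Aldoa's 2 identifiers, ENSMUSG00000030695 was used; the other held 3 counts. Pseudogene sharing was measured with words of 50 bases from GENCODE M21 transcripts; promoter windows came from RefSeq (GRCm38.p6). Words and motifs were counted in Python 3.11.15.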

Additional observations from a re-analysis of the deposited data

Results flagged for a closer look

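In 128 sets of 4 libraries (32 tested members in 4 groups), 11 had 1 library that stood apart from the other 3 by Dixon's test at 95%, where chance alone marks about 1 set in 20. Overlap hypoxia replicate 2 accounted for 4 of them: Gpi1 at 164.6 CPM (other overlap libraries 90.6 to 99.8 CPM), Tpi1 at 299 CPM (204 to 219 CPM), Eno1 at 416 CPM (230.1 to 242 CPM) and Higd1a at 88.1 CPM (68.9 to 70.7 CPM). This library also had the lowest ribosomal RNA share of its group (2.53%) and the highest summed erythroid markers (1334 CPM); their part was not tested. In intermittent hypoxia replicate 3 stood apart for Hk2 at 0.611 CPM (others 0.246 to 0.276 CPM) and Ddit4 at 5.85 CPM (others 1.65 to 2.14 CPM). In sustained hypoxia replicate 1 stood apart for Aldoa at 112 CPM (others 125 to 126 CPM) and Ccng2 at 9.32 CPM (others 6.92 to 7.25 CPM). In room air Aldoc stood apart in replicate 4 at 12.3 CPM (others 7.49 to 8.07 CPM), Pgam1 in replicate 1 at 117 CPM (others 132 to 134 CPM) and Higd1a in replicate 3 at 82.5 CPM (others 87.7 to 88.7 CPM).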

How the results depend on the processing

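In sustained hypoxia against room air edgeR called 0 members, against 1 with no filter on low counts, 3 with DESeq2, 5 with limma-voom, 2 with the compared groups alone, 1 with the replicate block and 1 without overlap hypoxia replicates 2 and 3; leaving out single libraries gave 0 to 3 (3 without overlap replicate 2). In intermittent hypoxia against room air the count of 10 became 0 with the ribosomal RNA share in the model and 7 to 11 without single libraries. Over all genes the 5404 calls there became 77 with that share and 4292 to 5635 without single libraries. In overlap hypoxia against room air 4 became 2 with upper-quartile scaling, with the ribosomal RNA share or with the length offset and 0 without overlap replicates 2 and 3. Leaving out single libraries gave 0 to 4 (0 without room air replicate 3 or 4). Over all genes the 916 calls there became 174 to 1186 without single libraries. In overlap against sustained hypoxia 0 became 1 with no filter, 2 with DESeq2, 5 with limma-voom and 1 without overlap replicates 2 and 3; single libraries gave 0 to 7 (7 without overlap replicate 2). In overlap against intermittent hypoxia 1 became 0 with DESeq2 size factors, upper-quartile scaling, a filter at a mean of 1 CPM, limma-voom, the compared groups alone, the ribosomal RNA share, the length offset or overlap replicates 2 and 3 left out; single libraries gave 0 to 1. In intermittent against sustained hypoxia 12 became 0 with the ribosomal RNA share and 8 to 13 without single libraries. Over all genes the 5584 calls there became 1 with that share and 4608 to 5858 without single libraries. With that share in the model the log2 fold change changed sign for Tpi1 in intermittent hypoxia against room air (0.026) and, in intermittent against sustained hypoxia, for Pfkl (0.018), Eno1 (0.10), Pdk1 (0.047) and Ero1l (−0.47); the cause was not tested. Upper-quartile scaling moved the median of all genes to 0.12 in both intermittent comparisons and turned 3 higher and 7 lower members against room air into 5 higher and 4 lower. With the replicate block the counts were 10, 5, 0, 1 and 10 in intermittent and overlap hypoxia against room air, overlap against sustained, overlap against intermittent and intermittent against sustained hypoxia; the added call in overlap hypoxia was Pfkfb3. The labels do not say that equal numbers share anything, so the samples were not taken as paired. Over 24 pairs of libraries with the same number the median correlation of deviations was 0.04, with 4 pairs over 0.1. Over 72 pairs with different numbers that median was −0.02, with 7 pairs over 0.1. Depth limits the members under about 1 CPM (Hk1, Hk2, Pfkp, Pfkfb4, Adm, Ankrd37, Stc2), where few counts back each value.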
